A study of Mus musculus with 6 samples.

Results

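Respiratory complex I genes were taken from the deposited count table by their symbols. All rows named Nduf followed by a, b, c, s, v, af or ab and a number were used, and 3 symbols ending in -ps were left out. This gave 51 of 26971 rows. They comprised 37 nuclear genes of complex I subunits, 8 assembly factors (Ndufaf1 to Ndufaf8), 2 genes that carry a subunit name but act outside complex I (Ndufa4 and Ndufa4l2) and 4 gene copies (Ndufa11b, Ndufb4b, Ndufb4c and Ndufs6b). Of the 51 genes, 48 had 10 or more counts in at least 3 libraries and were tested. Ndufa11b, Ndufb4b and Ndufb4c did not reach this level. Mitochondrially encoded genes were not analysed here.

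Complex I oxidises NADH in the mitochondrial matrix, passes the electrons through a flavin and a chain of iron-sulfur clusters to ubiquinone, and pumps protons across the inner membrane. Its N module holds the NADH site, its Q module the ubiquinone site, and its membrane arm the proton pumps. Conserved core subunits carry the chemistry, accessory subunits surround them, and assembly factors help to build the enzyme without staying in it. The proximal tubule, the main cell type of the kidney cortex, depends on oxidative phosphorylation for solute transport.

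Kidney cortex of male C57BL/6 mice was collected on day 1 after surgery. The 3 congested IRI libraries came from kidneys with IRI, the usual abbreviation of ischaemia-reperfusion injury, together with renal congestion (count columns IVCC_IRI), and the 3 IRI libraries from kidneys with IRI alone (CLK_IRI). Both groups carried the IRI treatment, IVCC and CLK are not expanded in the labels, and no uninjured kidney was among the samples. The comparison asks how congestion bears on gene expression in the injured kidney. Samples are numbered 1 to 3 in each group, but whether each is another animal is not stated, so a p-value here reflects the spread between these samples and no more.

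Total counts were 11376642, 12856600 and 11980864 in congested IRI replicates 1, 2 and 3, and 14350425, 11976816 and 10865860 in IRI replicates 1, 2 and 3. Over all 14398 tested genes, edgeR's quasi-likelihood test called 0 genes at an adjusted p under 0.05 (0% of genes), and at an unadjusted p under 0.05 it counted 147 lower genes (1.02%) and 141 higher genes (0.979%). Neither DESeq2, with 355 genes below that unadjusted p, nor limma-voom, with 289, called any gene. All 10 proximal tubule markers were detected, with summed levels of 4360, 9356 and 9416 CPM (counts scaled to a common library total with TMM factors) in congested IRI replicates 1, 2 and 3, and 4104, 8146 and 9844 CPM in IRI replicates 1, 2 and 3. Replicate 1 of both groups was low for these markers and high for the 6 tubular injury markers, which summed to 64268 CPM in congested IRI replicate 1 and 46870 CPM in IRI replicate 1, against at most 17995 CPM in the other 4 libraries.

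All 37 subunit genes had lower mean levels in congested IRI than in IRI, but none of them passed the adjusted threshold of edgeR. Their summed level was 4974, 4947 and 5683 CPM in congested IRI replicates 1, 2 and 3, against 9227, 9220 and 5283 CPM in IRI replicates 1, 2 and 3. These sums were alike in all congested IRI libraries. The sums of IRI replicates 1 and 2 were well above them, and that of IRI replicate 3 lay among them, so the groups overlapped. Single subunits varied to unlike degrees between congested IRI libraries, from 306.2 to 318.4 CPM in Ndufs1 and from 151.2 to 281.5 CPM in Ndufa10. The log2 fold changes, congested IRI over IRI, ranged from -0.96 for Ndufa5 to -0.30 for Ndufs1 with a median of -0.62, a fold of 0.652, against a median of -0.004 over all tested genes, of which 50.3% were below 0. By edgeR's quasi-likelihood test 0 of 37 passed the adjusted threshold (adjusted p of 0.935 for each), and 7 had an unadjusted p under 0.05 in the lower direction, where 1.02% of all genes did. With the replicate number as a block, 16 had an unadjusted p under 0.05, where 2.99% of all genes did in this direction, and the smallest adjusted p was 0.578. Of 1162 tested genes with transcripts under 1000 bases, 61 were lower at that unadjusted p without the block and 150 with it. In 1 of 37 subunits, Ndufs1, all congested IRI libraries lay below all IRI libraries, which held for 3.1% of all genes, and in 0 did they lie above (3.38% of all genes). Without IRI replicate 3 the subunit median was -0.88 and 29 of 37 had an unadjusted p under 0.05. Without congested IRI replicate 3 that count was 2, and without any of the other 4 libraries it was 0. Over all genes the number below that p also moved with the library left out, to 2703 without IRI replicate 3 and 352 without congested IRI replicate 3, against 288 with all libraries. It fell to 232 and 65 without IRI replicates 1 and 2, and to 134 and 85 without congested IRI replicates 1 and 2.

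The 8 assembly factor genes showed the same order of libraries. They summed to 272.6, 251.2 and 271.3 CPM in congested IRI replicates 1, 2 and 3, against 413.7, 379.1 and 279.9 CPM in IRI replicates 1, 2 and 3. IRI replicate 3 was here just above all congested IRI libraries. Their log2 fold changes ranged from -0.67 for Ndufaf2 to -0.08 for Ndufaf4 with a median of -0.54, and 0 of 8 were called by edgeR (lowest adjusted p of 0.935). All 8 were below 0 (50.3% of all genes), except that Ndufaf4 lay just above 0 with total counts as the scale or without IRI replicate 1. At an unadjusted p under 0.05, 2 of 8 were lower, Ndufaf5 and Ndufaf6, where 1.02% of all genes were. The count was 7 without IRI replicate 3, when 2703 of all genes were below that p, 1 without congested IRI replicate 3 and 0 without any of the other 4 libraries. Without 1 of those 4, the number over all genes also fell, to between 65 and 232, against 288 with all libraries. In whole tissue, fewer cells of a type and less RNA per cell cannot be told apart.

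The summed levels of these marker lists of other cortical cells did not follow this order of libraries. All 8 thick ascending limb markers were below 0, at 1970, 3610 and 6987 CPM in sum in congested IRI replicates 1, 2 and 3, against 1554, 6645 and 7062 CPM in IRI replicates 1, 2 and 3. All 7 tested of 8 collecting duct markers were below 0, at 303.1, 497.7 and 783.9 CPM in congested IRI, against 518.5, 986.5 and 857.5 CPM in IRI. Within replicate numbers 1, 2 and 3, their median differences in log2 CPM, congested IRI minus IRI, were -0.67, -0.73 and -0.04. The subunits had -1.01, -0.93 and 0.14. Thick ascending limb markers had -0.20, -0.98 and -0.03, and endothelial markers -0.08, 0.35 and -0.16. In single markers, IRI replicates 1 and 2 were both above all congested IRI libraries in 2 of the 7 collecting duct markers and in 1 of 7 tested endothelial markers, where 17.9% of all genes had this order. In sum, the endothelial markers split the libraries in the reverse way, with IRI replicates 1 and 2 below all congested IRI libraries. They were at 268.6, 274.5 and 260.5 CPM in congested IRI, against 243.6, 236.4 and 277.9 CPM in IRI. Of these 7, 4 were above 0 and 3 below. All 5 tested of 6 neutrophil markers were above 0, at 221.6, 16.1 and 7.77 CPM in congested IRI, against 74.1, 8.62 and 4.95 CPM in IRI. Replicate 1 was the lowest library of both groups in the tubular lists and the highest in the neutrophil list, and no listed marker was at 0 in all libraries. The part of cell composition in the complex I values was not tested.

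**Figure D1:**
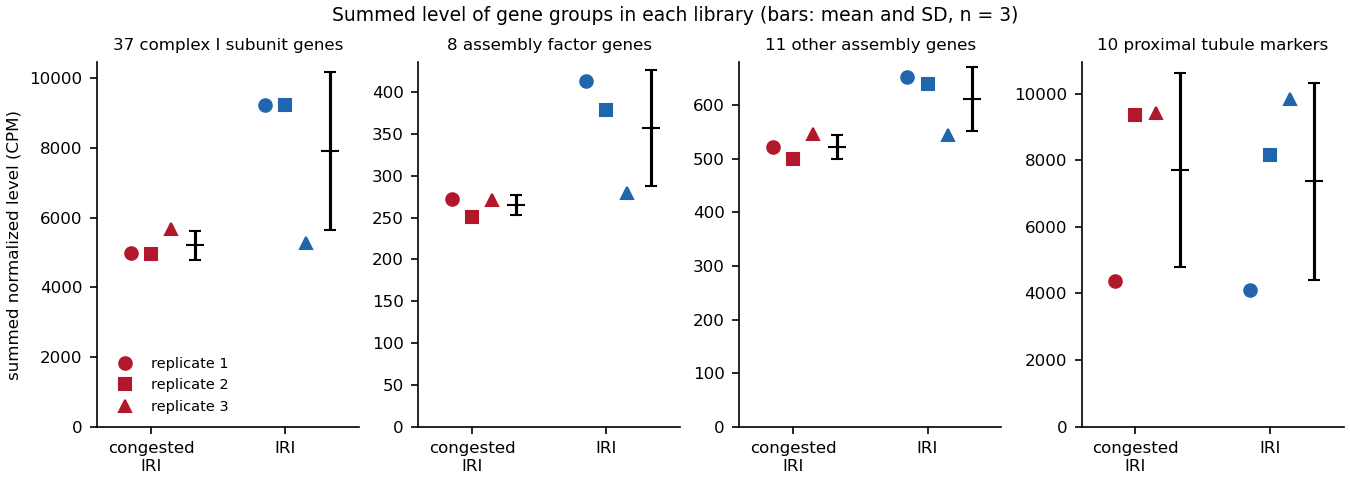
Summed normalized level (CPM) of complex I subunits, assembly factors, other complex I assembly genes and proximal tubule markers in each library, with congested IRI left of IRI; points are libraries and bars the mean and SD of 3. Subunits lie at 4974, 4947 and 5683 CPM in congested IRI and at 9227, 9220 and 5283 CPM in IRI, whereas proximal tubule markers separate replicate 1 from replicates 2 and 3 in both groups.

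The members lie on 18 chromosomes, so the promoters of a few are shown for their sequence. RefSeq promoters of GRCm38.p6, from 250 bases before to 50 after the start, were matched for 33 of 37 subunits and 7 of 8 assembly factors and searched on both strands for 4 motifs of factors known to act on mitochondrial genes. CCGGAAG, the ETS motif bound by GABP, occurred in 4 of 33 subunits (12.1%) and 2 of 7 assembly factors (28.6%), against 19.1% of tested genes and 9.93% of all promoters. GCATGCG, the NRF1 core, which overlaps its own reverse complement in CGCATGCG, occurred in 3 of 33 subunits (9.09%) and 2 of 7 factors, against 6.86% of tested genes and 4.01% of all promoters. AAGGTCA, a motif of oestrogen-related receptors, occurred in 3 of 33 subunits (9.09%) and 0 of 7 factors, against 3.96% of tested genes and 5.38% of all promoters. ATGGCGG, bound by YY1, occurred in 8 of 33 subunits (24.2%) and 2 of 7 factors, against 8.92% of tested genes and 4.69% of all promoters. No single motif was shared by most members. The stretches just before the start of 5 members, chosen so that each motif is seen, read 5′ to 3′ on the gene's strand with the motif in capitals. They lie at chr2:90904722-90904841 (Ndufs3, minus strand), chr16:37654369-37654488 (Ndufb4, minus), chr2:119662835-119662954 (Ndufaf1, minus), chr4:24897963-24898082 (Ndufaf4, plus) and chr17:78937015-78937134 (Ndufaf7, plus). The capitals mark ETS motifs in Ndufs3 and Ndufaf1, the receptor motif in Ndufb4, the overlapping NRF1 cores in Ndufaf4 and the YY1 motif in Ndufaf7.
Ndufs3: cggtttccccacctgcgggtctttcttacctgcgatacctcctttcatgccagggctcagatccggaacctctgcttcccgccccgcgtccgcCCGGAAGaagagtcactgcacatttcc
Ndufb4: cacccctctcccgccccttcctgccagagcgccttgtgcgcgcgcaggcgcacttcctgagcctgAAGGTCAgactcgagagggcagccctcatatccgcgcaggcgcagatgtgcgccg
Ndufaf1: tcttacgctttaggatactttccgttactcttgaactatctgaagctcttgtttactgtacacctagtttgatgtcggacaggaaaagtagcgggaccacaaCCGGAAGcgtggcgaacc
Ndufaf4: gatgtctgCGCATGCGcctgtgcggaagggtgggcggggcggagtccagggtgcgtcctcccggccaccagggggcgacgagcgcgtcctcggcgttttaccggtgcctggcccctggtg
Ndufaf7: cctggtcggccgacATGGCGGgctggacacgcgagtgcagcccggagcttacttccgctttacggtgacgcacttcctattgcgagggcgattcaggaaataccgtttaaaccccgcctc

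Among the 3 core subunits of the N module, Ndufs1 had groups that did not overlap and the change nearest to 0. Ndufs1, a subunit that carries several iron-sulfur clusters, lies on chr1:63143596-63176833 (GRCm38, minus strand). Its level was 306.2, 318.4 and 314.8 CPM in congested IRI replicates 1, 2 and 3, against 355.4, 428.6 and 372.9 CPM in IRI replicates 1, 2 and 3. All congested IRI libraries were below all IRI libraries, IRI replicate 3 included, an order seen in 1 of 37 subunits and 3.1% of all genes. The mean was 313.1 ± 6.24 CPM in congested IRI and 385.6 ± 38.2 CPM in IRI (SD, n = 3 each), a log2 fold change (± SE) of -0.30 ± 0.21 and a 95% interval of -0.78 to 0.18 (edgeR adjusted p = 0.935). Exons of Ndufs1 overlap those of Eef1b2 on the opposite strand, and whether the counting used strand is not given in the sources used here.

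Ndufv1, which binds the flavin that accepts electrons from NADH, was at 206.5, 266.7 and 348.1 CPM in congested IRI, against 377.0, 482.8 and 320.6 CPM in IRI. IRI replicate 3 lay below congested IRI replicate 3, so the groups overlapped, and the log2 fold change (± SE) was -0.52 ± 0.28 (edgeR adjusted p = 0.935). Ndufv2, its iron-sulfur partner, was at 283.2, 227.5 and 243.7 CPM in congested IRI, against 552.5, 428.9 and 238.9 CPM in IRI. IRI replicates 1 and 2 were above every congested IRI library and IRI replicate 3 was within their range. Its log2 fold change (± SE) of -0.69 ± 0.33 was the furthest from 0 of the 7 core subunits.

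In the Q module, the core subunits Ndufs3, Ndufs7 and Ndufs8 had alike changes. Ndufs7, which carries the cluster that hands electrons to ubiquinone, was at 89.3, 100.5 and 142.4 CPM in congested IRI, against 180.5, 202.8 and 121.8 CPM in IRI, a log2 fold change (± SE) of -0.60 ± 0.28.

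Ndufs8, another iron-sulfur subunit of the Q module, was at 98.0, 116.5 and 137.9 CPM in congested IRI, against 175.1, 231.9 and 126.7 CPM in IRI, also at -0.60 ± 0.28. Ndufs3, a structural core subunit, was at 155.1, 160.0 and 177.5 CPM in congested IRI, against 285.7, 286.3 and 172.8 CPM in IRI, again at -0.60 ± 0.26. In Ndufs3, Ndufs7 and Ndufs8, IRI replicate 3 was within the congested IRI range and the other IRI libraries were above it. All 3 had an edgeR adjusted p of 0.935.

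**Figure D2:**
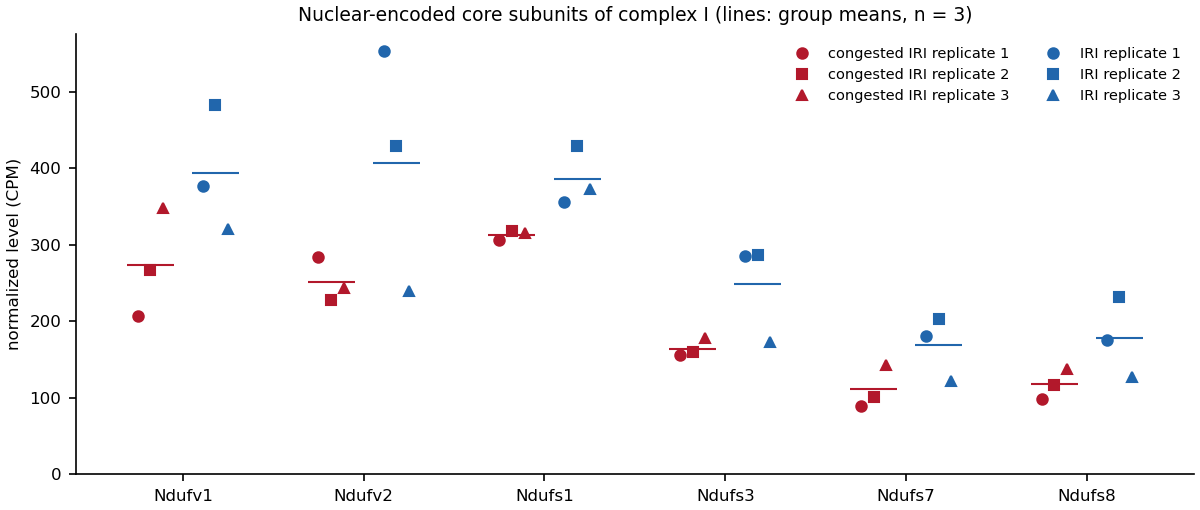
Normalized level (CPM) of 6 nuclear core subunits in each library, congested IRI left of IRI for each gene, with lines at the group means of 3 libraries. In Ndufs1 the congested IRI libraries (306.2 to 318.4 CPM) all lie below the IRI libraries (355.4 to 428.6 CPM), while in the other 5 the groups overlap at IRI replicate 3. Over all tested genes, 3.1% have all congested IRI libraries below all IRI libraries.

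All 30 accessory subunits were below 0, with a median log2 fold change of -0.67, against -0.60 for the 7 core subunits. The 7 subunits with an unadjusted p under 0.05 were all accessory. Ndufs6, a zinc-binding subunit of the N module, had the smallest p of these. It was at 108.0, 100.9 and 106.5 CPM in congested IRI, against 247.7, 216.9 and 101.7 CPM in IRI, with means of 105.1 ± 3.74 CPM and 188.8 ± 76.9 CPM (SD, n = 3 each). IRI replicates 1 and 2 were more than 100 CPM above every congested IRI library, and IRI replicate 3 was within the congested IRI range. The log2 fold change (± SE) was -0.84 ± 0.33 and a 95% interval of -1.62 to -0.07 (edgeR adjusted p = 0.935).

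Ndufa12, which lies beside Ndufs6 in the assembled enzyme, was at 58.9, 75.5 and 74.5 CPM in congested IRI, against 151.5, 135.4 and 68.6 CPM in IRI, a log2 fold change (± SE) of -0.77 ± 0.32. Ndufa3, an accessory subunit of the membrane arm, was at 91.0, 92.5 and 105.2 CPM in congested IRI, against 212.7, 204.9 and 88.4 CPM in IRI, at -0.81 ± 0.34. In Ndufa3 IRI replicate 3 was below all congested IRI libraries, as in 7 of 37 subunits.

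Ndufb2 and Ndufb4, accessory subunits of the distal membrane arm, followed the same order. Ndufb2 was at 36.1, 28.5 and 30.8 CPM in congested IRI, against 79.7, 61.4 and 29.9 CPM in IRI, a log2 fold change (± SE) of -0.84 ± 0.35. Ndufb4 was at 22.0, 18.9 and 21.7 CPM in congested IRI, against 51.3, 33.7 and 21.2 CPM in IRI, at -0.76 ± 0.32. Both had an edgeR adjusted p of 0.935, and Ndufb4b and Ndufb4c, copies of Ndufb4, held 0 to 8 counts per library. Exons of Ndufs6, Ndufa3 and Ndufb2 overlap those of Mrpl36, Tfpt and Braf on the opposite strand, and 15 of 37 subunits share exons in this way with an annotated gene. In 3 subunits, Ndufb2, Ndufb8 and Ndufb9, exons are shared with an annotated gene on the same strand (Gm42420, Gm20538 and Gm49356).

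The Ndufb5 gene, for a membrane arm subunit, was at 172.7, 162.1 and 162.4 CPM in congested IRI, against 296.5, 291.6 and 163.0 CPM in IRI. The level in IRI replicate 3 was thus nearly that of congested IRI replicates 2 and 3, and the log2 fold change (± SE) was -0.59 ± 0.27. Ndufa5, a Q module accessory subunit with the change furthest from 0, was at 187.7, 130.7 and 150.4 CPM in congested IRI, against 442.8, 333.9 and 136.1 CPM in IRI, at -0.96 ± 0.42. At the other end were Ndufa10, Ndufc2 and Ndufs1, at -0.32, -0.32 and -0.30. In Ndufa10, IRI replicates 1 and 3, at 252.3 and 254.5 CPM, were within the range of the congested IRI libraries, 151.2 to 281.5 CPM.

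**Figure D3:**
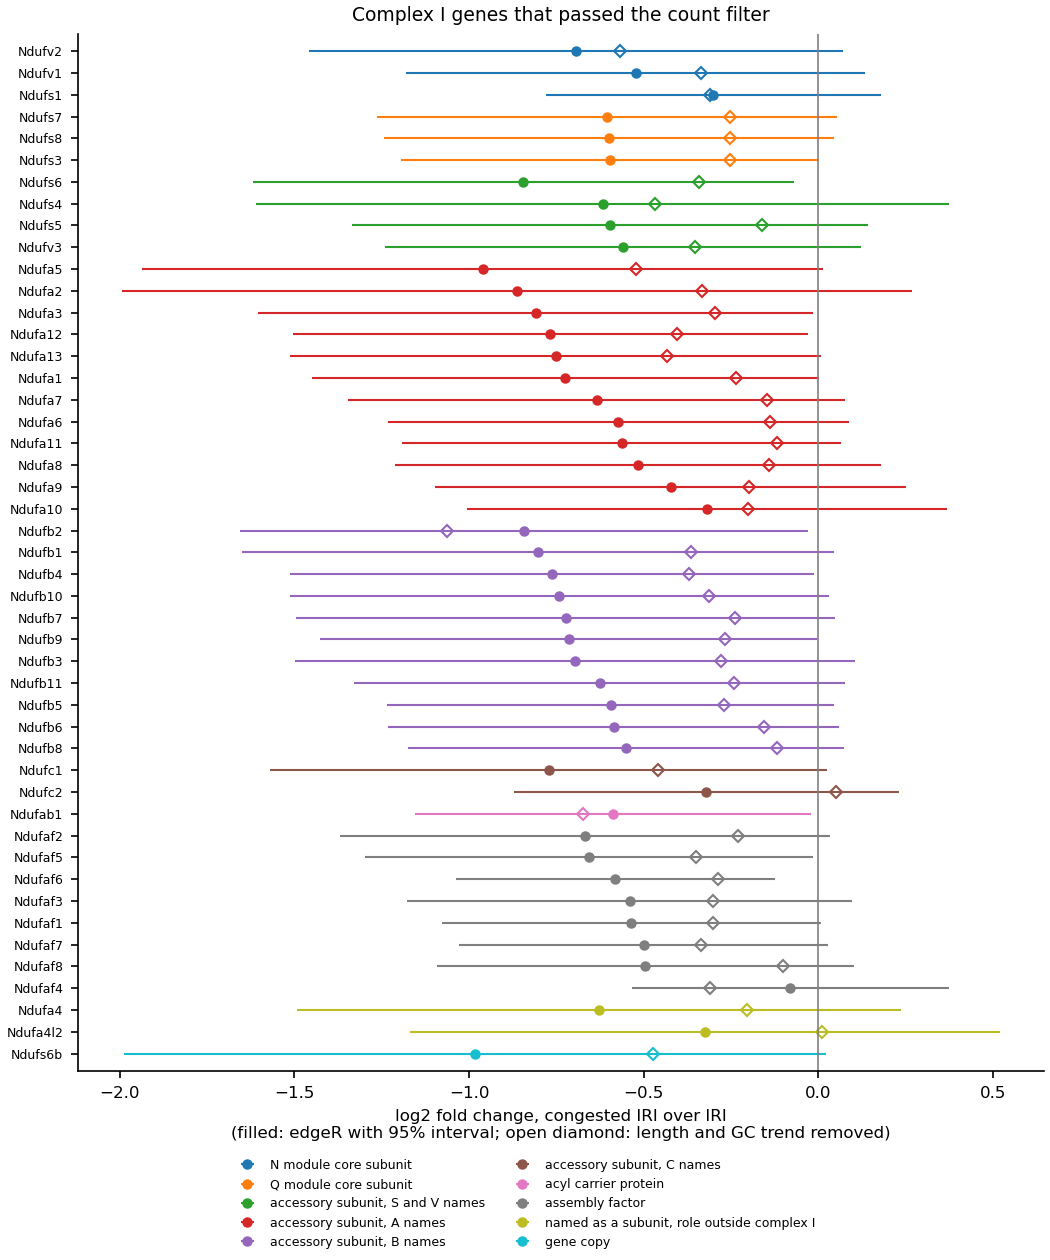
Log2 fold change, congested IRI over IRI, of tested complex I genes grouped by class, with the edgeR estimate and 95% interval (filled) and the estimate after removal of the length and GC trend (open diamonds). Every filled point lies below 0 (-0.98 to -0.08), 9 intervals end below 0, and the open diamonds reach from -1.06 to 0.05.

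Ndufaf1, a part of the complex that assembles the membrane arm, was at 27.9, 34.9 and 35.5 CPM in congested IRI, against 56.4, 50.4 and 35.7 CPM in IRI. All congested IRI libraries were below all IRI libraries, although IRI replicate 3 exceeded congested IRI replicate 3 by under 1 CPM. This order held in 2 of 8 assembly factors and in 3.1% of all genes. The log2 fold change (± SE) was -0.54 ± 0.23 (edgeR adjusted p = 0.935). Ndufaf3 and Ndufaf4 act together in Q module assembly. Ndufaf3 was at 25.6, 22.9 and 31.0 CPM in congested IRI, against 36.6, 51.6 and 27.3 CPM in IRI, a log2 fold change (± SE) of -0.54 ± 0.27. Ndufaf4 was at 89.4, 79.8 and 72.3 CPM in congested IRI, against 95.2, 76.6 and 83.5 CPM in IRI, at -0.08 ± 0.20 (95% interval -0.53 to 0.38, edgeR adjusted p = 0.956). With the length and GC trend removed, the log2 fold changes were -0.30 for Ndufaf3 and -0.31 for Ndufaf4. The libraries of the groups interleaved for Ndufaf4, its log2 fold change was 0.023 with total counts as the scale and 0.015 without IRI replicate 1, and whether it differs from Ndufaf3 in its response was not tested.

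Ndufaf5 and Ndufaf7 are enzymes that modify core subunits of the Q module, Ndufaf5 by hydroxylation of Ndufs7 and Ndufaf7 by methylation. Ndufaf5 was at 23.2, 20.4 and 19.9 CPM in congested IRI, against 43.9, 34.1 and 22.0 CPM in IRI, a log2 fold change (± SE) of -0.66 ± 0.27. Ndufaf7 was at 40.3, 35.0 and 43.1 CPM in congested IRI, against 66.0, 59.4 and 42.04 CPM in IRI, at -0.50 ± 0.23. Ndufaf5 was lower in congested IRI within each replicate number, and Ndufaf7 within numbers 1 and 2. Ndufaf8, the stabilising partner of Ndufaf5, was at 18.9, 15.01 and 19.9 CPM in congested IRI, against 29.8, 28.1 and 18.02 CPM in IRI, at -0.49 ± 0.26. These 3 had an edgeR adjusted p of 0.935.

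Ndufaf6, an early assembly factor related to phytoene synthases, had the smallest p of all 48 genes. It lies on chr4:11051045-11076205 (GRCm38, minus strand) and was at 21.6, 21.5 and 25.1 CPM in congested IRI, against 36.9, 36.2 and 29.0 CPM in IRI. All congested IRI libraries were below all IRI libraries, with means of 22.7 ± 2.06 CPM in congested IRI and 34.0 ± 4.38 CPM in IRI (SD, n = 3 each). The log2 fold change (± SE) was -0.58 ± 0.20 and a 95% interval of -1.04 to -0.12 (edgeR unadjusted p = 0.0192, adjusted p = 0.935). Ndufaf2, a relative of Ndufa12 that acts late in assembly, was at 25.7, 21.8 and 24.4 CPM in congested IRI, against 49.0, 42.8 and 22.4 CPM in IRI, at -0.67 ± 0.30. In Ndufaf2 IRI replicate 3 was again within the congested IRI range.

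Of the genes with a role beside complex I, Ndufab1 and Ndufa4 kept this order of libraries and Ndufa4l2 did not. Ndufab1, the mitochondrial acyl carrier protein, serves fatty acid synthesis and is also a complex I subunit. It was at 53.4, 64.9 and 72.0 CPM in congested IRI, against 109.6, 106.1 and 70.5 CPM in IRI, a log2 fold change (± SE) of -0.59 ± 0.24 (edgeR adjusted p = 0.935). Ndufa4, now assigned to cytochrome c oxidase, was at 712.2, 488.5 and 538.7 CPM in congested IRI, against 1250, 944.6 and 492.0 CPM in IRI, at -0.63 ± 0.37. Ndufa4l2, a hypoxia-inducible relative of Ndufa4, was near the count filter, at 1.44, 1.54 and 2.20 CPM in congested IRI, against 1.91, 2.73 and 1.85 CPM in IRI. Its log2 fold change (± SE) of -0.33 ± 0.36 became 0.011 with the length and GC trend removed.

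Ndufs6b, annotated as a processed pseudogene of Ndufs6, held 1.62, 1.32 and 1.80 CPM in congested IRI, against 3.26, 4.44 and 1.68 CPM in IRI. These counts are uncertain because reads of Ndufs6 can match its copy. Ndufa11b was at 0.269, 0.439 and 0.706 CPM in congested IRI, against 1.11, 0.427 and 0.618 CPM in IRI. Ndufb4c was at 0.628, 0.586 and 0.0785 CPM in congested IRI, against 0.636, 0.341 and 0.177 CPM in IRI, and Ndufb4b had at most 2 counts in any library.

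Within equal replicate numbers the direction was not uniform. The labels do not say what a number shares, and replicates 2 and 3 of the groups also correlated when crossed. The median difference of the 37 subunits in log2 CPM, congested IRI minus IRI, was -1.01 in number 1, -0.93 in number 2 and 0.14 in number 3. All 37 subunits were below 0 in numbers 1 and 2 (background 49.7% and 49.4%), and 4 of 37 were in number 3 (background 50.4%). The assembly factors had medians of -0.74, -0.75 and 0.01, with 8, 7 and 4 of 8 below 0. Ndufc1, a small membrane arm subunit, had the widest split, with congested IRI at 0.349, 0.539 and 1.22 times the IRI level in numbers 1, 2 and 3. Lower in all 3 numbers were 4 of 37 subunits (among them Ndufs1, Ndufb5 and Ndufc2) and 3 of 8 assembly factors (Ndufaf1, Ndufaf5 and Ndufaf6), where 13.1% of all genes were. With the other 3 scalings (RLE, upper-quartile and total counts) this held for 4 of 48 genes in place of 7. No complex I gene was higher in all 3 numbers, and 26.2% of all genes had a single direction in all 3. Of these 7, Ndufs1 differed by -0.21, -0.43 and -0.24, Ndufaf6 by -0.77, -0.75 and -0.21, and Ndufaf5 by -0.91, -0.74 and -0.15 in numbers 1, 2 and 3. Ndufb5 and Ndufaf1 differed by less than 1% of the IRI level in number 3.

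**Figure D4:**
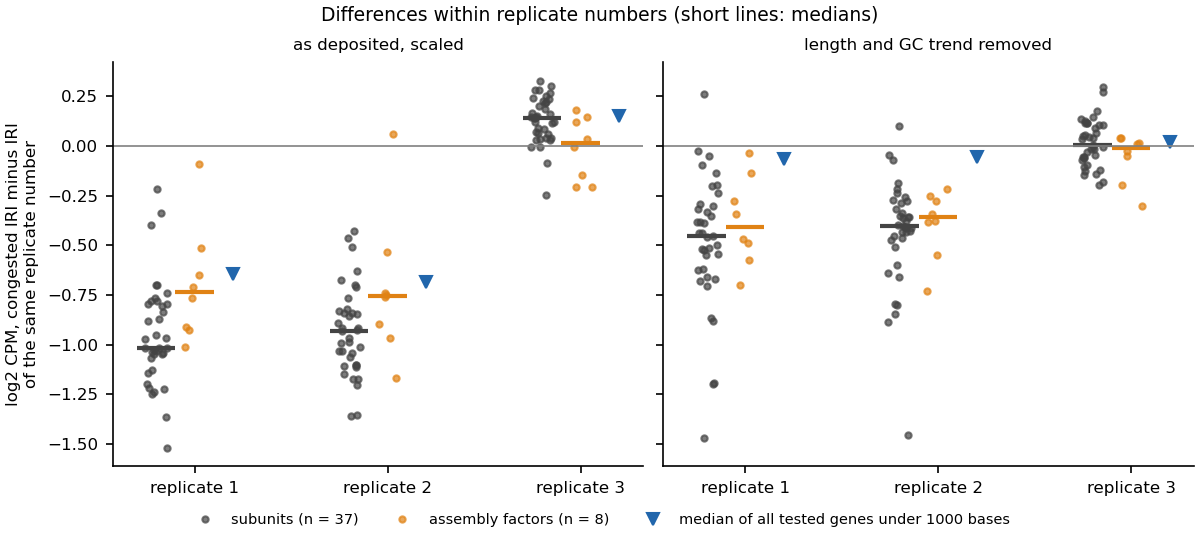
Difference in log2 CPM between the congested IRI and the IRI library of the same replicate number, for 37 subunits, 8 assembly factors and the median of all tested genes with transcripts under 1000 bases, as scaled (left) and with the length and GC trend removed (right); short lines are medians. As scaled, subunits have medians of -1.01, -0.93 and 0.14 in numbers 1, 2 and 3, and with the trend removed -0.46, -0.40 and 0.005.

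The library that set number 3 apart was on the IRI side. In 35 of 37 subunits IRI replicates 1 and 2 were both above all congested IRI libraries (17.9% of all genes), and in 35 IRI replicate 3 was at or below the highest congested IRI library (75.1% of all genes). Both held in 34 subunits, and Ndufs1 and Ndufa10 were among the others. Of 1162 tested genes with transcripts under 1000 bases, IRI replicates 1 and 2 were above all congested IRI libraries in 571. In 997 of them IRI replicate 3 was at or below the highest congested IRI library. The SD over 3 libraries was larger in IRI than in congested IRI in 36 of 37 subunits, with medians of 58.0 CPM in IRI and 15.4 CPM in congested IRI. The exception was Ndufa10, at 68.3 CPM in congested IRI and 54.2 CPM in IRI. Between replicate numbers edgeR called 0 of 48 complex I genes, where 7.94% of all genes were called, and 2 of 48 had an unadjusted p under 0.05, Ndufa2 (adjusted p = 0.163) and Ndufs4 (adjusted p = 0.122), where 25.9% of all genes did. The injury markers, which separated replicate 1 from the others, were called between numbers in 6 of 6.

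Leaving out replicate number 3 of both groups gave calls that the whole set did not give. In that edgeR fit with the replicate block, on 4 libraries with 1 residual degree of freedom, 37 of 37 subunits and 7 of 8 assembly factors were lower at an adjusted p under 0.05, where 18.4% of 13856 tested genes were (38.3% counting both directions). Their medians were -0.92 and -0.77. With the length and GC trend also removed, 16 of 37 subunits and 2 of 8 factors were lower, where 4.89% of tested genes were (9.2% in both directions), with medians of -0.39 and -0.41. Leaving out number 1 or number 2 instead gave 0 calls among complex I genes, with subunit medians of -0.40 in both cases. Number 3 was singled out after these values were known, so these calls describe the 4 libraries left.

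Most complex I transcripts are short, and short transcripts as a class lay lower in congested IRI. Of the 37 subunits, 21 had an annotated transcript under 1000 bases, and the median over subunits was 908 bases, against 2906 bases over all tested genes with a length. Of 1162 tested genes under 1000 bases, 1018 were below 0 with a median log2 fold change of -0.47, and their differences in replicate numbers 1, 2 and 3 had medians of -0.64, -0.68 and 0.15, the order seen in complex I. The slope of each library on log2 transcript length was 0.04, 0.17 and 0.10 in congested IRI replicates 1, 2 and 3, against -0.29, -0.18 and 0.17 in IRI replicates 1, 2 and 3. A negative slope means more of the counts on short transcripts than in the mean of all libraries, and IRI replicates 1 and 2, the libraries with high complex I levels, were the only 2 with one. The part of this length trend in the complex I values was not tested apart from the adjustment that follows.

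Removing from each library its trend in length and GC content brought the subunits nearer to 0 but not to it. The median was -0.27 for subunits, with 36 of 37 below 0 (52.9% of all genes), and -0.30 for assembly factors, with 8 of 8 below 0, while genes under 1000 bases had a median of -0.06 and all genes -0.02. The exception was Ndufc2, at 0.05. Within numbers 1, 2 and 3 the subunit medians became -0.46, -0.40 and 0.005 and the factor medians -0.41, -0.36 and -0.01. In 22 of 48 genes the difference was then below 0 in all 3 numbers (17% of all genes), including Ndufs1, Ndufs3, Ndufs6 and Ndufaf6. Ndufs1, with 2661 bases, was hardly moved by the adjustment (-0.30 before and -0.31 after). Ndufaf4, with 3632 bases, went the other way, to -0.31. The values of Ndufb2 and Ndufab1 after adjustment, -1.06 and -0.67, rest on annotated transcripts of 4371 and 3479 bases around coding sequences of 315 and 468 bases. With coding length in place of transcript length the subunit median was -0.38 and the factor median -0.46, with Ndufb1, which had no coding length, left unadjusted. No complex I gene was called by edgeR in any of these fits over all 6 libraries.

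**Figure D5:**
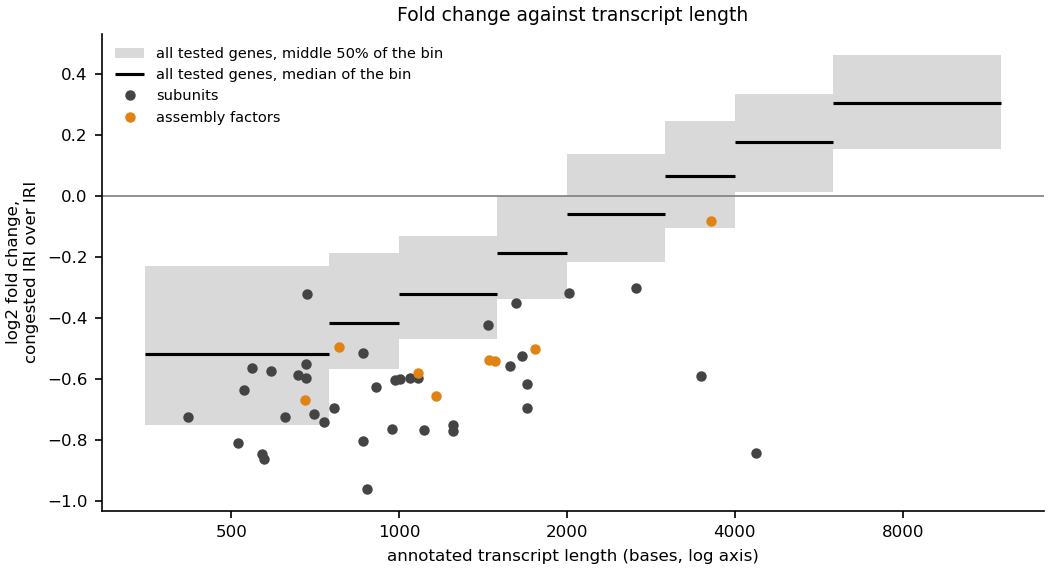
Log2 fold change, congested IRI over IRI, against annotated transcript length (log axis) for 37 subunits and 8 assembly factors, with the median and the middle 50% of all tested genes in 8 length bins. The median of all genes runs from -0.52 under 750 bases to 0.31 over 6000 bases, and the 14 subunits under 750 bases have a median of -0.67.

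Across the 45 subunits and assembly factors, Spearman's rho of the log2 fold change was 0.38 with transcript length. With coding length it was 0.57, leaving out Ndufb1, which had no annotated coding length. Over 13905 genes it was 0.58 with transcript length, as a description of genes that share the same 6 libraries. The subunits lay close together, with an SD of log2 fold change of 0.16 between genes, against 0.39 over all genes and 0.18 over the 8 assembly factors. In levels per kilobase of transcript, averaged over the 6 libraries, subunits ranged from 10.2 CPM for Ndufb2 to 481.1 CPM for Ndufa6 with a median of 192.8 CPM. Assembly factors ranged from 21.8 CPM for Ndufaf3 to 45.7 CPM for Ndufaf2 with a median of 26.7 CPM, and 4 subunits (Ndufs5, Ndufb4, Ndufab1 and Ndufb2) were at or below the highest of them. Values per kilobase of Ndufab1 and Ndufb2 rest on annotated transcripts of 3479 and 4371 bases around coding sequences of 468 and 315 bases. Not divided by length, Ndufb2 averaged 31.8 CPM in congested IRI and 57.0 CPM in IRI, above Ndufs5 at 20.8 and 31.5 CPM. Ndufa6, an accessory subunit at the base of the peripheral arm, averaged 386.9 ± 58.0 CPM per kilobase in congested IRI and 575.2 ± 162.7 CPM per kilobase in IRI (SD, n = 3 each), so that these levels do not separate it from Ndufa2, the second, at 259.8 ± 83.6 CPM and 472.6 ± 273.0 CPM per kilobase.

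Other genes that build complex I lay nearer to 0. Of 11 tested assembly genes outside the Ndufaf names, 11 were below 0 with a median log2 fold change of -0.19, and 0 were called by edgeR. Their smallest p belonged to Dmac1, a factor of the distal membrane arm, which was at 31.7, 30.5 and 34.7 CPM in congested IRI, against 61.3, 49.9 and 31.4 CPM in IRI, a log2 fold change (± SE) of -0.56 ± 0.27. Nubpl, which delivers iron-sulfur clusters to complex I, was at 32.5, 24.8 and 23.8 CPM in congested IRI, against 48.6, 35.8 and 26.3 CPM in IRI, at -0.45 ± 0.27. Both had the library order of the subunits, with IRI replicate 3 within the congested IRI range. The median transcript length was 2232 bases in this list, against 1308.5 bases over the 8 Ndufaf genes. With the length and GC trend removed, the median of this list was -0.13, with 10 of 11 below 0, against -0.30 for the Ndufaf genes. Whether this list differs from the Ndufaf genes was not tested.

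Genes that maintain the complex or set mitochondrial number gave mixed values. All 6 tested genes of complex I import and quality control were below 0 with a median of -0.40 and 0 called by edgeR. Clpp, the matrix protease, was at 74.9, 57.6 and 78.0 CPM in congested IRI, against 132.7, 101.7 and 71.4 CPM in IRI, a log2 fold change (± SE) of -0.54 ± 0.27. Aifm1, a flavoprotein needed for import of complex I subunits, was at 146.5, 179.9 and 195.1 CPM in congested IRI, against 228.5, 269.2 and 217.9 CPM in IRI, at -0.46 ± 0.22. Its groups did not overlap, which held in this direction for 3.1% of all genes. Of 12 genes of mitochondrial biogenesis 10 were above 0, with a median of 0.11 and 0 called. These 12 had a median transcript length of 3705.5 bases. With the length and GC trend removed, 8 of them were above 0 with a median of 0.02. The quality control genes then had a median of -0.24, with all 6 below 0.

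Among those 12, Tfam, which packages and transcribes mitochondrial DNA, was at 62.4, 69.6 and 70.5 CPM in congested IRI, against 102.4, 91.3 and 71.5 CPM in IRI, a log2 fold change (± SE) of -0.39 ± 0.21. All 3 congested IRI libraries of Tfam were below all IRI libraries (3.1% of all genes), IRI replicate 3 by about 1 CPM. Ppara, a nuclear receptor of fatty acid oxidation, was the reverse, at 57.9, 49.6 and 51.2 CPM in congested IRI, against 21.6, 19.1 and 55.1 CPM in IRI, at 0.73 ± 0.40. Here IRI replicates 1 and 2 were the low libraries, and IRI replicate 3 was again within the congested IRI range. Both had an edgeR adjusted p of 0.935.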

How the data were processed

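Total RNA of kidney cortex was sequenced after a stranded library preparation for polyadenylated RNA, per the labels. The deposited values are raw read counts per gene in whole numbers, 1 column for each library. STAR 2.7.10a, featureCounts, Subread and the build GRCm38 are named in the submitters' processing notes, with no role for each. How reads were aligned, which gene models were used and whether counting used strand is not given in the sources used here. Genes that overlap on opposite strands may thus share reads, and those that overlap on the same strand may do so with either setting.

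Genes with 10 or more counts in 3 or more libraries were tested in R 4.3.3 with the robust quasi-likelihood F test of edgeR 4.0.16 (TMM factors, group only), with Benjamini-Hochberg adjustment over all 14398 genes and a threshold of 0.05. Levels are CPM on TMM-scaled library sizes, with a prior count of 2 on the log2 scale. Library totals of 10865860 to 14350425 counts gave the subunits 200 to 7253 counts per library. Replicates differed by more than sampling noise (17.2 to 175 in chi-square over its degrees of freedom), so none was taken as a repeat of another. Deviations from the group means correlated at 0.719, 0.342 and 0.427 between libraries numbered 1, 2 and 3, each above 0.1. The numbers were therefore used as pairs, without the labels saying what a number shares. Congested IRI replicate 3 and IRI replicate 2 also correlated, at 0.395, above the 0.342 of number 2. Congested IRI replicate 2 and IRI replicate 3 correlated at 0.242, which is above 0.1 too. These values thus do not settle how replicates 2 and 3 of the groups belong together. The replicate block lowered edgeR's common coefficient of biological variation to 0.211, against 0.338 without it. An exact permutation test of 3 against 3 libraries cannot go below 0.1 and was not used.

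Transcript lengths, GC content, coordinates and overlapping exons came from the GENCODE annotation of GRCm38 (principal transcript), which gave a length for 96.6% of tested genes. The length and GC trend was fitted per library with mgcv 1.9.3 (basis 6) and used as an offset. Ndufb1 was matched through a RefSeq synonym to a gene annotated as a bidirectional promoter lncRNA with no coding length. Its length, overlap and trend-adjusted values rest on that annotation. Alternatives were RLE, upper-quartile and total-count scaling, other filters, DESeq2 1.42.0, limma-voom (limma 3.58.1), the replicate block, the trend and each library or replicate number left out. On data simulated without replicate number effects, the unblocked fit found 5% of the genes given a 2-fold and 68% of those given a 4-fold difference. On other data, simulated with replicate number effects, the blocked fit found 65% and 100%. Unchanged genes made up 3 of the 76 unblocked calls and 19 of the 184 blocked calls. The fits were not run on the same simulated data, so these shares do not compare them.

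Members and lists were chosen with earlier results of these data known. Named genes were the 7 nuclear core subunits, all assembly factors, the 6 subunits with the smallest p, up to 4 members with 1 direction in all replicate numbers, genes with roles beside complex I, members under the filter, and the 2 genes of smallest p in each pathway list. Other genes, such as Ndufa5, Ndufa6 and Ndufc1, were named after their values were seen. Values of 1 core subunit are not reported here. Coa1 and Phb, in the assembly and quality control lists, matched no row.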

Additional observations from a re-analysis of the deposited data

How the results depend on the processing

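The direction of the subunit median held under all 30 other settings, from -0.92 without replicate number 3 in both groups with the replicate block to -0.18 without IRI replicate 2 with the trend removed. Leaving out 1 library in turn gave subunit medians of -0.88 to -0.51 and assembly factor medians of -0.70 to -0.39. With the replicate block alone the medians were -0.57 and -0.51, and 0 genes were called. Of 720 values of 24 named genes, 681 kept direction and side of the threshold, 31 passed it in the fits without replicate number 3, and 8 changed sign. Ndufaf4 did so with total counts (0.023) and, between -0.17 and 0.015 over the libraries left out in turn, without IRI replicate 1 (0.015). Ndufa4l2 did so with the trend removed (0.011), also with the block (0.0031), with coding length (0.095), and with the trend removed without IRI replicate 2 (0.11), IRI replicate 3 (0.12) or replicate number 2 (0.10). Total counts as the scale moved the median of all genes to 0.10. Over all genes, the paired fits called 8, 7 and 5300 genes without replicate numbers 1, 2 and 3, and 5 and 1275 without numbers 2 and 3 with the trend removed. DESeq2 with the replicate block called 10 genes, none of them a complex I gene. Without number 3, 46 complex I genes were called, and 18 with the trend removed. Within replicate numbers, 7 complex I genes had 1 direction, against 4 with RLE, upper-quartile or total-count scaling and 22 with the trend removed. Between numbers, 2 were called with the trend removed, against 0. The causes were not tested. At an unadjusted p under 0.05, DESeq2 counted 18 subunits, limma-voom 1, total counts 1 and no filter 16, against 7, and over all genes 355, 289, 291 and 556, against 288. The settings with coding or longest transcript length, DESeq2 or limma-voom with the block, and the trend combined with a library left out were chosen after seeing the data. Without the block, subunit standard errors were 0.21 to 0.48, and with it 0.19 to 0.32. The simulated 2-fold changes found, 5% without the block and 65% with it, came from separate simulations and do not compare the fits.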
